A study of Danio rerio with 6 samples.

Results

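Ribosomal protein transcripts differed little between *fogsk8* and WT embryos on these arrays, and none differed by 2-fold. Of 8793 genes named on the array, 73 were taken as cytosolic ribosomal protein genes, by a platform symbol that starts with *rpl*, *rps* or *rplp* and a digit, or *rpsa*, leaving out the kinases named *rps6k* and the gene *rps27l*. Where a gene had several probe sets, the brightest by its mean of 6 arrays stood for it. Of the 73, 41 encode proteins of the large subunit, 3 encode proteins of its stalk and 27 encode proteins of the small subunit. The other 2 were taken by the pattern of the symbol only: *rps19bp1* encodes a protein that binds S19, and *rpl7l1* is a paralog of *rpl7*. They are kept as members, and counts without them are given below.

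The *fogsk8* embryos carry a mutation in *foggy/spt5* (*supt5h*), which encodes the transcription elongation factor Spt5. They were compared with their wild-type (WT) siblings, all at 24 hours post fertilization (hpf). The study's methods name AB as the wild-type strain, and describe removal of the chorion by hand or with a protease before RNA extraction. No other treatment of these embryos is named. Biotinylated cRNA made from the RNA of whole embryos was hybridized to Affymetrix Zebrafish Genome Arrays, 1 array a sample, with 3 replicates of each group. The study describes *sk8* as a severe truncation of the gene product. It also describes Spt5 protein of maternal origin that is reduced but not absent at this stage, so the mutants are not free of the protein. The number of embryos in a sample, and whether the siblings included carriers of the allele, are not given in the sources used here. The *supt5h* transcript read 3.72 ± 0.077 on the log2 scale in *fogsk8* embryos and 7.26 ± 0.40 in WT (SD, n = 3 each), in the direction of the labels.

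A ribosome is built from ribosomal RNA and a fixed set of proteins, most of them present in a single copy, in a large subunit that joins amino acids and a small subunit that reads the mRNA. The mRNAs of these proteins are among the most abundant of a growing cell, and in vertebrates they begin with a run of pyrimidines through which their translation is regulated together. In zebrafish, loss of 1 copy of many of these genes is known to favour tumours, and loss of both copies harms growth of the whole embryo. Their genes are short and are transcribed by RNA polymerase II at a high rate, and *rpl4* was among the control genes of the study's quantitative RT-PCR. The study lists *rpl4* as unchanged by RT-PCR and by array. It also reports from these same arrays, with data not shown, that genes for ribosome constituents were under-represented among those it called.

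The values are GC-RMA values on the log2 scale, in which 1 unit is a 2-fold difference. Of the 73 genes, 65 had a mean of 13 or more, where the highest value of any probe set was 14.48 to 14.87 on the 6 arrays. On this scale 66 of the 100 brightest genes were members. Brightness of a probe set depends on its probes as well as on the transcript, so this is no order of abundance. The brightest were *rps4x* (14.30), *rpl36* (14.25) and *rpl7a* (14.15), and the dimmest *rps27.2* (11.88), *rpl7l1* (10.37) and *rps19bp1* (8.05), as means over the 6 arrays. The median member read 13.57, 13.61 and 13.59 in the *fogsk8* samples, against 13.67, 13.67 and 13.53 in the WT samples. The groups overlapped, since WT replicate 3 lay below the 3 mutant arrays and the other WT arrays above them.

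**Figure D1:**
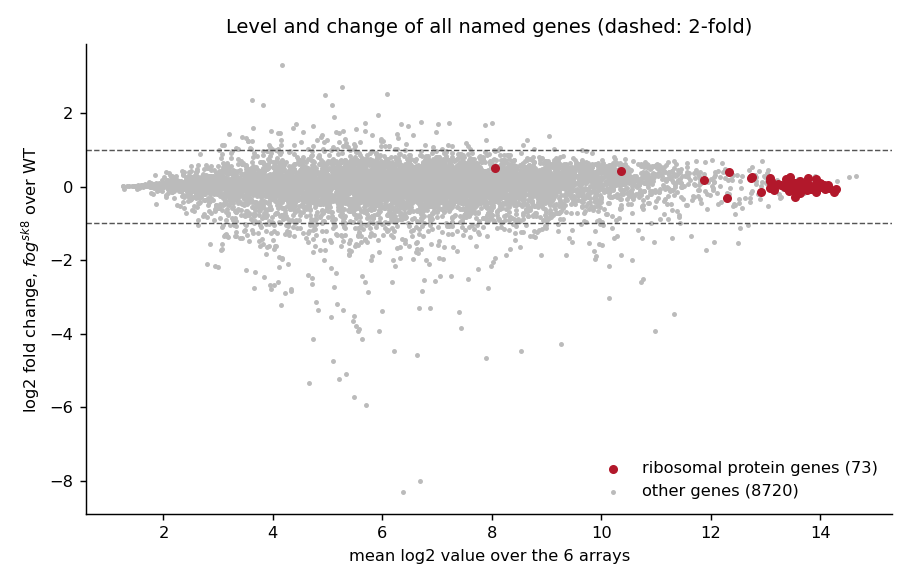
Mean log2 value over the 6 arrays (horizontal) and log2 fold change of *fogsk8* over WT embryos (vertical) of the 8793 named genes, with the 73 ribosomal protein genes in red and dashed lines at 2-fold. The ribosomal protein genes lie at the bright end of the scale, and no member reached 2-fold, with changes between −0.31 and 0.49.

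By limma over all 15502 probe sets, with Benjamini-Hochberg adjustment, 1 member rose and 1 fell at an adjusted p under 0.05. Over all 8793 genes the shares were 10.8% higher and 9.14% lower. The gene that rose was *rplp2*, and the gene that fell was *rpl18*. Together they are 2.74% of the members, where 19.9% of all genes passed the test. No member changed by 2-fold (0 of 73), under limma or any alternative, where limma called 4.09% of all genes at 2-fold, 0.898% higher and 3.2% lower. At an unadjusted p under 0.05, limma found 10 members (13.7%), 8 higher and 2 lower, where it found 36.4% of all genes. The methods' t-test found 7 members higher and 3 lower before adjustment, where it found 18.4% of all genes higher and 12.1% lower. After adjustment it found 0 higher and 1 lower, where it found 3.86% and 3.80% of all genes. With arrays centred on their medians 2 members were higher and 1 lower, and 22.5% of all genes were called. With a further quantile normalization 3 members were higher and 2 lower, and 19.1% of all genes were called. With the replicates blocked by number 2 members were higher and 0 lower, and 25.2% of all genes were called. The sample titles call the replicates biological, and the study's methods call them independent. Neither says whether they came from separate clutches, so p-values measure the spread between these samples.

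The median change of the 73 genes was 0.019 on the log2 scale, where that of all genes was 0.057. The quartiles were −0.062 and 0.087 for the members, and −0.14 and 0.26 for all genes. By estimate 41 members were higher and 32 lower, or 56.2% higher, where 63.7% of all genes were. An absolute change under 0.2, which is 1.15-fold, was found for 62 members (84.9%) and for 47.5% of all genes. These are descriptions of the list, and no test over the list was made.

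A p above the threshold does not show that a transcript kept its level, so the 95% interval of each change was read as well. It lay within 0.5 on the log2 scale either way, or 1.41-fold, for 66 members (90.4%), where it did so for 44.9% of all genes. Within 2-fold either way lay the intervals of 73 members (100%) and of 84.2% of all genes. The widest reach was that of *rps19bp1* upward (0.89, or 1.85-fold) and of *rpl22l1* downward (−0.63, or 1.55-fold). For the median member the interval reached 0.19 to either side of the estimate. GC-RMA brings the arrays toward a common distribution, so a change of all mRNA in an embryo would not appear in these values. A joint shift of the members could be reduced too, since they make up 66 of the 100 brightest genes. Whether this happened was not tested.

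**Figure D2:**
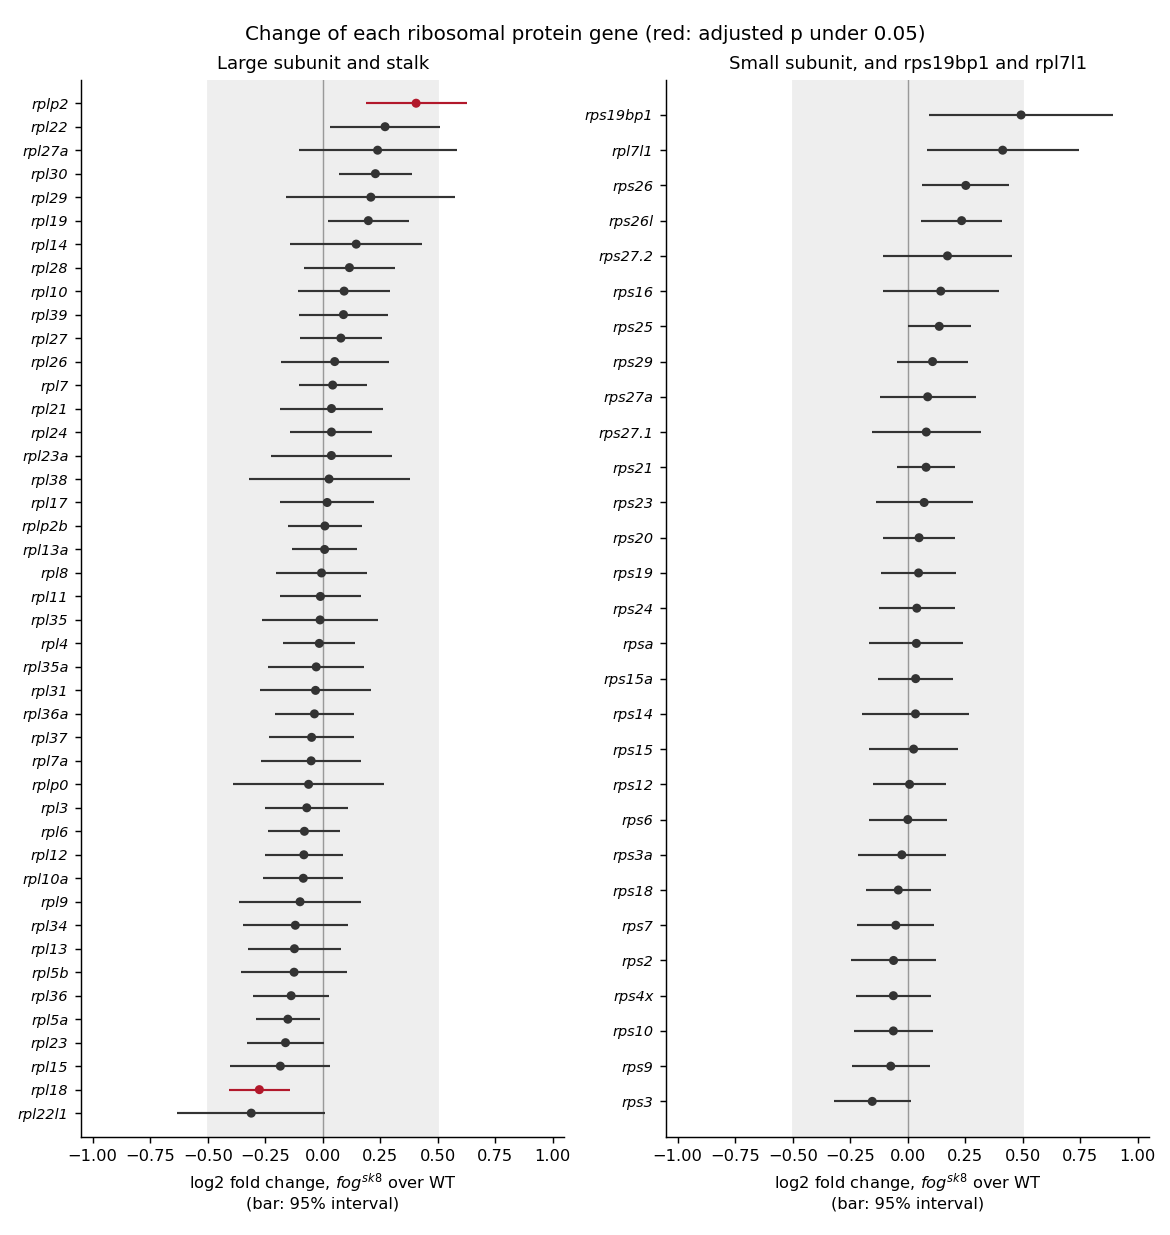
Log2 fold change of *fogsk8* over WT embryos with its 95% interval for each of the 73 genes, large subunit and stalk on the left, small subunit with *rps19bp1* and *rpl7l1* on the right, in red where the adjusted p was under 0.05. The grey band marks 0.5 either way, which holds the whole interval of 66 genes.

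The members were also set beside other genes at the bright end of the scale. Of the 65 members with a mean of 13 or more, 1 passed the test (1.54%, limma, adjusted p), and of the 26 other genes at this level 7 did (26.9%), 4 higher and 3 lower. The median absolute change was 0.062 in those 65 members and 0.17 in the 26 other genes. For 96.9% of the 65 members and 80.8% of the 26 genes the interval lay within 0.5 either way. Whether bright spots flatten true changes of the members was not tested, since no probe-level values were used.

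The stalk is the flexible arm of the large subunit that binds the elongation factors, and it is made of the base protein P0 (*rplp0*) with pairs of P1 and P2. *rplp2* read 12.36, 12.61 and 12.62 in the *fogsk8* samples, against 12.15, 12.17 and 12.06 in the WT samples. The 3 mutant samples lay above the 3 WT samples, with a log2 fold change of 0.41 (SE 0.089, 95% interval 0.19 to 0.63, adjusted p = 0.033 by limma), which is 1.32-fold. Its call was lost without *fogsk8* replicate 2 or 3 or any 1 of the WT replicates (adjusted p = 0.0801 to 0.0984, change 0.36 to 0.43), without replicate 3 of both groups (adjusted p = 0.135, change 0.33) and in the methods' t-test after adjustment (adjusted p = 0.0843).

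A further gene for P2, *rplp2b*, read 13.36, 13.36 and 13.31 in mutants, against 13.37, 13.40 and 13.23 in WT, and the groups overlapped (log2 fold change 0.0094, SE 0.064, adjusted p = 0.927). The change of *rplp2* exceeded that of *rplp2b* by 0.40, and the difference between both genes on each array did not overlap between the groups (exact permutation p = 0.10, two-sided, the smallest that 3 against 3 samples allow). Since *rplp2* was picked for its call on these same arrays, this describes the pair and is no separate support. *rplp0* read 14.10, 14.16 and 13.90 in mutants, against 14.29, 14.19 and 13.87 in WT (log2 fold change −0.061, SE 0.13, adjusted p = 0.771). Its replicate 3 was the lowest of each group.

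*rpl18*, a protein of the large subunit, read 13.39, 13.37 and 13.46 in the *fogsk8* samples, against 13.71, 13.68 and 13.65 in the WT samples. The groups were apart by more than their spread, with SDs of 0.046 in mutants and 0.026 in WT. The log2 fold change was −0.28 (SE 0.053, 95% interval −0.41 to −0.14, adjusted p = 0.0232), or 1.21-fold lower. The call was lost in the fit blocked by replicate number (adjusted p = 0.0593), with dim probe sets left out (adjusted p = 0.0738) and without *fogsk8* replicate 1 or 2 or any 1 of the WT replicates (adjusted p = 0.053 to 0.0832). Over the alternatives the change lay between −0.31 and −0.24, and the adjusted p between 0.000844 and 0.0832, the lowest being the unadjusted p of the methods' t-test.

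**Figure D3:**
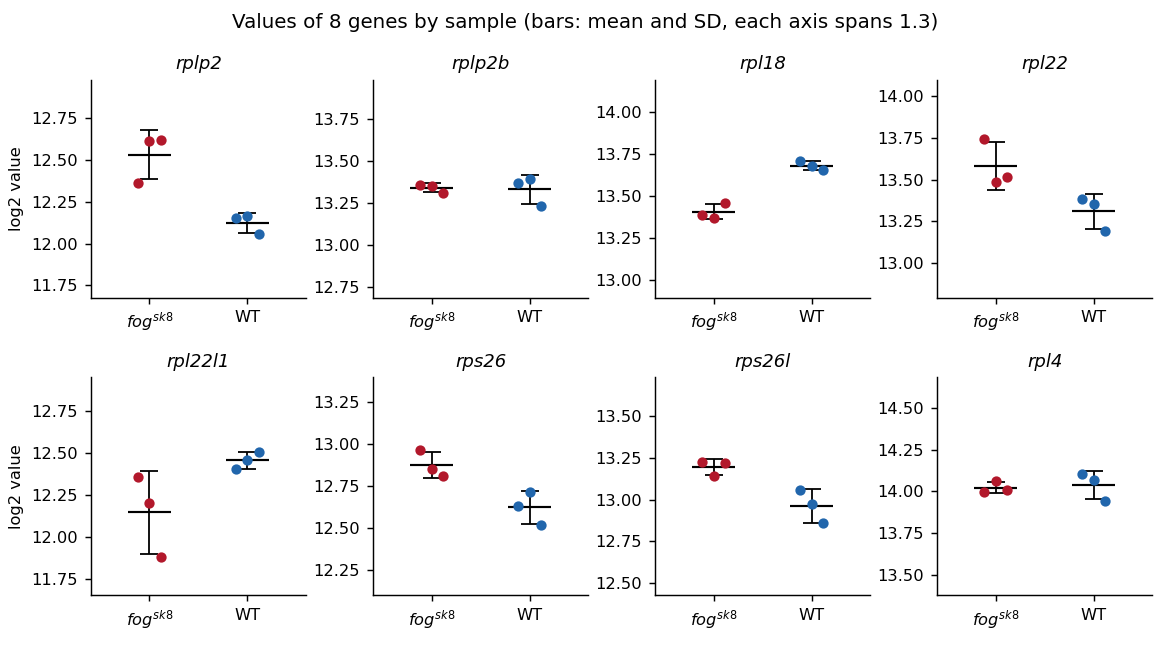
Log2 values of 8 genes in the 3 *fogsk8* samples (red, left) and the 3 WT samples (blue, right), with mean and SD; each vertical axis spans the same 1.3 log2 units. *rplp2* is higher and *rpl18* lower in mutants, *rpl22* and *rpl22l1* move in opposite directions without passing the test, and *rpl4* overlaps.

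*rpl22* and *rpl22l1* encode paralogs that share a place on the large subunit and are known in zebrafish for opposing roles in the emergence of blood stem cells. *rpl22* read 13.74, 13.48 and 13.52 in mutants, against 13.38, 13.36 and 13.19 in WT, and each mutant value lay above the WT values (log2 fold change 0.27, SE 0.097, adjusted p = 0.119). *rpl22l1* read 12.36, 12.20 and 11.88 in mutants, against 12.40, 12.46 and 12.51 in WT, with each mutant value below those of WT (log2 fold change −0.31, SE 0.13, adjusted p = 0.169). Neither gene passed the test. Over the alternatives the change of *rpl22* lay between 0.19 and 0.32, and that of *rpl22l1* between −0.42 and −0.15. The change of *rpl22* exceeded that of *rpl22l1* by 0.58. The groups lay apart in each of the 2 genes, as they did in 40.9% of all genes. The directions were opposite, so *rpl22* minus *rpl22l1* on each array had to lie apart too. Its exact permutation p (0.10, two-sided, the smallest possible here) was thereby fixed and adds nothing to the values of the 2 genes.

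*rps26* and *rps26l*, paralogs for a small subunit protein at the exit of the mRNA, had nearly the same change. *rps26* read 12.96, 12.85 and 12.81 in mutants, against 12.63, 12.72 and 12.52 in WT (log2 fold change 0.25, SE 0.077, adjusted p = 0.0795). *rps26l* read 13.23, 13.14 and 13.22 in mutants, against 13.05, 12.97 and 12.86 in WT (log2 fold change 0.23, SE 0.071, adjusted p = 0.0783). In both genes the groups did not overlap, as in 40.9% of all genes, and the changes differed by 0.018 (exact permutation p = 0.80, two-sided). Both passed the methods' t-test before adjustment, and *rps26* passed after a further quantile normalization (adjusted p = 0.0356). Probe sequences were not used here, so cross-hybridization between paralogs was not checked in any of these pairs.

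*rpl5a* and *rpl5b* encode L5, which with L11 and the 5S RNA forms a particle that also binds Mdm2, the brake on p53. *rpl5a* read 12.89, 12.81 and 12.81 in mutants, against 12.98, 13.03 and 12.95 in WT (log2 fold change −0.15, SE 0.056, adjusted p = 0.129). *rpl5b* read 13.31, 13.42 and 13.37 in mutants, against 13.60, 13.57 and 13.31 in WT (log2 fold change −0.12, SE 0.093, adjusted p = 0.413). *rpl11* read 13.33, 13.28 and 13.44 in mutants, against 13.39, 13.41 and 13.27 in WT (log2 fold change −0.010, SE 0.071, adjusted p = 0.927). Of these 3 genes only *rpl5a* had groups that did not overlap, which was the case in 40.9% of all genes. The intervals of the 3 changes reached from −0.35 to 0.16.

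*rps27.1* and *rps27.2* encode the zinc-binding protein S27. *rps27.1* had a log2 fold change of 0.081 (SE 0.096, adjusted p = 0.599), and its other probe sets gave −0.0033 and 0.071, so 3 probe sets of this gene lay close together in change. *rps27.2* had a log2 fold change of 0.17 (SE 0.11, adjusted p = 0.355). *rps27a*, which is another gene in spite of its name and makes S27a fused to ubiquitin, had one of 0.087 (SE 0.084, adjusted p = 0.524). In the same way *rpl7a*, at −0.050 (SE 0.088, adjusted p = 0.720), is not a copy of *rpl7*, at 0.043 (SE 0.060, adjusted p = 0.649).

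The members taken by their symbol alone had the 2 highest estimates. *rpl7l1* read 10.62, 10.61 and 10.49 in mutants, against 10.36, 10.24 and 9.88 in WT (log2 fold change 0.41, SE 0.13, adjusted p = 0.0934), and the test was passed once the replicates were blocked by number (adjusted p = 0.048). *rps19bp1* read 8.59, 8.06 and 8.24 in mutants, against 7.85, 7.95 and 7.62 in WT (log2 fold change 0.49, SE 0.16, adjusted p = 0.0959). A second probe set of *rps19bp1* read 7.90, 7.92 and 7.87 in mutants, against 7.45, 7.35 and 6.82 in WT, and passed the test (log2 fold change 0.69, SE 0.17, adjusted p = 0.0458). In each of these probe sets the groups lay apart, as they did in 40.9% of all genes. Of the 3 other members with several probe sets, *rps27.1*, *rpl3* and *rpl21*, none had a probe set past the test, and the second of *rpl21* was dim (3.09 ± 0.13 in mutants and 3.03 ± 0.11 in WT, SD, n = 3 each). Without *rps19bp1* and *rpl7l1*, 71 genes remained with a median change of 0.0094, and 2 of them were called as before (2.82%).

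Of the other genes of the large subunit, *rpl30*, *rpl19*, *rpl27a* and *rpl29* had the highest estimates. *rpl30* read 13.88, 13.88 and 13.89 in mutants, against 13.69, 13.72 and 13.55 in WT, so that the mutant arrays were almost equal and lay above WT (log2 fold change 0.23, SE 0.063, adjusted p = 0.0627). It passed with arrays centred on their medians (adjusted p = 0.0461) and after a further quantile normalization (adjusted p = 0.0233). *rpl19*, at the rim of the tunnel through which the new chain leaves, read 13.94, 14.08 and 14.07 in mutants, against 13.92, 13.78 and 13.79 in WT (log2 fold change 0.20, SE 0.071, adjusted p = 0.120).

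*rpl27a* read 13.15, 12.68 and 12.74 in mutants, against 12.66, 12.69 and 12.50 in WT (log2 fold change 0.24, SE 0.14, adjusted p = 0.305). *rpl29* read 13.77, 13.28 and 13.37 in mutants, against 13.37, 13.29 and 13.13 in WT (log2 fold change 0.21, SE 0.15, adjusted p = 0.391). In these 2 genes *fogsk8* replicate 1 stood alone above the rest. It was above both other mutant arrays by over 0.2 in 6 members, which also include *rpl21*, *rpl22*, *rpl23a* and *rps19bp1*. By any margin, *fogsk8* replicate 1 was the highest mutant array in 37.0% of members and 34.7% of all genes. It was the lowest in 39.7% of members and 29.5% of all genes. Among the large subunit genes, *rpl15* (−0.18, SE 0.088, adjusted p = 0.219) and *rpl23* (−0.16, SE 0.067, adjusted p = 0.167) had the lowest estimates after *rpl22l1* and *rpl18*, and *rpl36* (−0.14, SE 0.066, adjusted p = 0.226) followed *rpl5a*.

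Over the 44 genes of the large subunit and its stalk, the median change was −0.011, and 20 were higher by estimate (45.5%). Over the 27 genes of the small subunit it was 0.037, and 19 were higher by estimate (70.4%). The calls of limma were 2 of 44 and 0 of 27, where 19.9% of all genes were called, with 6 and 2 at an unadjusted p under 0.05, where 36.4% of all genes had one. Of the small subunit genes 100% had an interval within 0.5 either way, and of the large subunit genes 88.6%. By the methods' t-test, 4 of the 27 small subunit genes passed before adjustment and 0 after it, where 30.5% and 7.65% of all genes did. With any 1 array left out the median was −0.057 to 0.019 for the large subunit and −0.0019 to 0.088 for the small subunit. The median of the small subunit was above that of the large subunit in all 6 of these settings, and the difference between them was not tested.

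The changes were also read by site in the ribosome. These groupings were drawn up, and *rpl19*, *rpl29*, *rplp0*, *rpl11* and *rps19* chosen for naming, after the values were seen. The proteins that line the exit tunnel, *rpl4*, *rpl17* and *rpl39*, lay between −0.015 and 0.090. Those at its rim, *rpl19*, *rpl23a*, *rpl26*, *rpl31* and *rpl35*, lay between −0.031 and 0.20. Those near the site where peptide bonds form, *rpl3*, *rpl8* and *rpl10*, lay between −0.069 and 0.093. The 3 proteins around the entry of the mRNA, *rps2*, *rps3* and *rps9*, lay between −0.15 and −0.062. The lowest adjusted p among the genes of these groups was 0.120. At the exit of the mRNA, *rps14* and *rps26* had changes of 0.034 and 0.25 (lowest adjusted p = 0.0795). The proteins of the stalk lay between −0.061 and 0.41, and *rplp2* among them passed the test. Those of the 5S particle lay between −0.15 and −0.010 (lowest adjusted p = 0.129).

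*rps3* was the lowest of the small subunit, at 13.53, 13.52 and 13.47 in mutants, against 13.73, 13.71 and 13.55 in WT (log2 fold change −0.15, SE 0.068, adjusted p = 0.190). *rps6*, the S6 protein that is phosphorylated downstream of the growth kinase TOR, had the smallest change of all members, at 13.46, 13.46 and 13.47 in mutants, against 13.53, 13.52 and 13.34 in WT (log2 fold change 0.00037, SE 0.069, adjusted p = 0.997). *rpl8* and *rps12* followed, at −0.0053 and 0.0080 (adjusted p = 0.965 and 0.936).

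*rpl4* read 14.00, 14.06 and 14.01 in mutants, against 14.10, 14.07 and 13.95 in WT. The groups overlapped, with a log2 fold change of −0.015 (SE 0.063, 95% interval −0.17 to 0.14, adjusted p = 0.880). Over the alternatives its change was −0.061 to 0.024. Of 9 members whose human counterparts are the best established genes of Diamond-Blackfan anaemia, a failure of red cell production, no gene passed the test. The test was passed by 2.74% of all 73 members and by 19.9% of all genes, so this count does not set the 9 apart from the other members. The changes of the 9 ran from −0.15 (*rpl5a*) to 0.25 (*rps26*). This group, too, was chosen after the values were seen. It is no full list of the disease's genes, so the result holds for these 9 only. *rps19*, the gene most often mutated in that disease, read 13.29, 13.36 and 13.27 in mutants, against 13.31, 13.31 and 13.16 in WT (log2 fold change 0.047, SE 0.066, adjusted p = 0.655).

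Among the 6 arrays the members varied less than the median gene. The range from the lowest to the highest array had a median of 0.25 over the members and of 0.55 over all genes, and it was under 0.5 for 66 members (90.4%) and for 44.2% of all genes. The groups did not overlap in 16 members (21.9%), 11 higher and 5 lower in mutants, where they did not overlap in 40.9% of all genes. The median SD of a member was 0.071 in mutants and 0.098 in WT, and that of all genes was 0.13 in both groups. Most genes are dimmer than the members. For the 65 members with a mean of 13 or more the median SD was 0.059 in mutants and 0.097 in WT. For the 26 other genes at this level it was 0.094 in mutants and 0.076 in WT. Against these genes the members thus had the lower spread in mutants and the higher spread in WT.

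WT replicate 3 read low for most of these genes. It was the lowest WT array in 65 of the 73 members (89.0%), where it was so in 39.7% of all genes, and the lowest of the 6 arrays in 48 members. The members lay below their mean over the 6 arrays on this array by a median of 0.11, against 0.063 and 0.035 above it on WT replicates 1 and 2. Of the 26 other genes with a mean of 13 or more it was the lowest WT array in 12 (46.2%). The median deviation of these 26 genes was −0.026 on WT replicate 3 and −0.039 on WT replicate 2. The low reading was thus more common in the members than in these 26 genes or in all genes. Without WT replicate 3 the median change fell from 0.22 to 0.095 for ribosome biogenesis genes, and from 0.21 to 0.15 for mitochondrial ribosomal proteins. The latter was also 0.15 without *fogsk8* replicate 3. Without WT replicate 3 the median went from 0.023 to 0.013 for translation factors, and from 0.551 to 0.555 for p53 genes. For the other transcripts with a pyrimidine start it went from −0.017 to −0.072. Over all genes the medians of the WT arrays lay between −0.035 and −0.020. On the *fogsk8* arrays the medians of the members were −0.00062, 0.020 and 0.00046. Without WT replicate 3 the median change of the 73 genes was −0.034, against 0.019 with it, and limma called 0 members, where it called 15.1% of all genes.

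**Figure D4:**
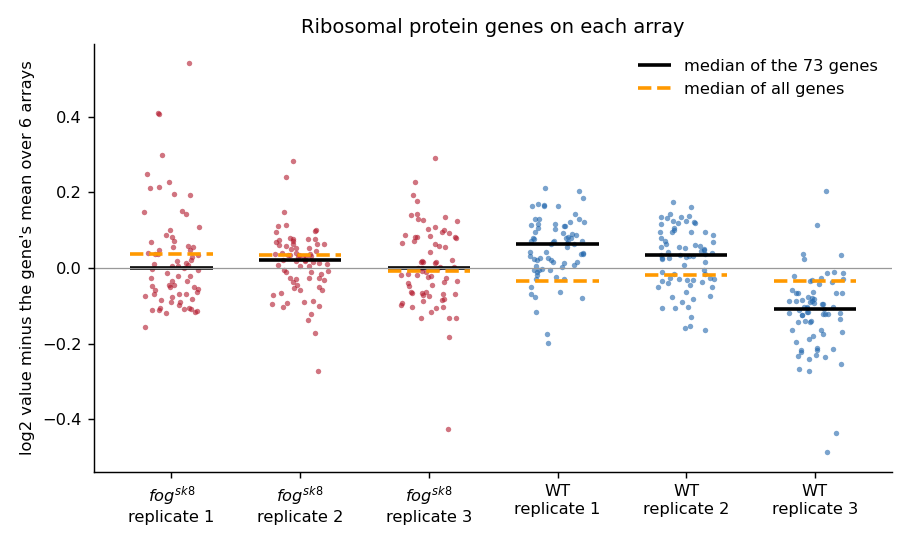
Log2 value of each of the 73 genes minus its mean over the 6 arrays, for the 3 *fogsk8* arrays (red, left) and the 3 WT arrays (blue, right), with the median of these genes (black) and of all named genes (dashed orange). On WT replicate 3 the members lie below 0 by a median of 0.11, and the other arrays lie between −0.00062 and 0.063.

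Other lists of the translation machinery were read against the same 19.9% of all genes called. Of 42 measured initiation and elongation factors, 5 rose and 8 fell (31.0%), 1 of them by 2-fold, with a median of 0.023. *eif6*, which keeps new large subunits from joining too early, rose (log2 fold change 0.61, SE 0.13, adjusted p = 0.0293). *eef2a.1*, a gene for elongation factor 2, fell by 0.84 (SE 0.11, adjusted p = 0.00852) on the log2 scale. *eif3hb*, a subunit of initiation factor 3, fell by 1.42 (SE 0.20, adjusted p = 0.00977). Its values were low, at 3.10 ± 0.068 in mutants and 4.52 ± 0.40 in WT (SD, n = 3 each). Of 82 ribosome biogenesis genes, 7 rose and 4 fell (13.4%, below the share of all genes), with a median of 0.22, which was 0.095 without WT replicate 3. Those with the largest changes were *pwp2h*, of the machinery that processes small subunit RNA, which fell by 1.3 (SE 0.20, adjusted p = 0.0122), *utp23*, of the same machinery, which rose by 0.87 (SE 0.096, adjusted p = 0.00519), and *npm1b*, a nucleophosmin, which fell by 0.83 (SE 0.10, adjusted p = 0.0073).

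The ribosome of the mitochondrion has its own proteins. Of 60 measured genes for them, 10 rose and 2 fell (20.0%, the share of all genes being 19.9%), with a median of 0.21, and the largest changes were those of *mrpl53* (0.89, SE 0.16, adjusted p = 0.0205), *mrps28* (0.76, SE 0.12, adjusted p = 0.0127) and *mrpl36* (0.75, SE 0.11, adjusted p = 0.0102). Of 19 other genes whose transcripts are known, mostly from mammals, to begin with the same run of pyrimidines, 2 rose and 4 fell (31.6%), with a median of −0.017. *nap1l1*, a histone chaperone, fell by 1.44 (SE 0.093, adjusted p = 0.0014), and *hnrnpa1b*, an RNA-binding protein, fell by 0.90 (SE 0.072, adjusted p = 0.00236). *eef1b2*, of the complex that recharges elongation factor 1, fell by 0.50 (SE 0.081, adjusted p = 0.0149). *rack1*, a scaffold protein that sits on the small subunit but has another kind of symbol, had a log2 fold change of −0.017 (SE 0.085, adjusted p = 0.898). Both *rack1* and *mdm2* (below) were chosen after their values were seen. This list shares *eef1b2* and other genes with that of the translation factors. With any 1 array left out, 1 to 2 translation factors rose and 3 to 8 fell, and 2 to 7 biogenesis genes rose and 4 to 7 fell. In these settings 3 to 8 mitochondrial genes rose and 0 to 1 fell, and 0 to 1 genes of the pyrimidine list rose and 3 to 4 fell. The share of all genes called was 10.6% to 15.5% in the same settings, against 19.9% with all arrays. The median level was 13.62 for the ribosomal proteins and 7.66 to 12.22 for these 4 lists, and the part of level in the width of the lists was not tested.

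**Figure D5:**
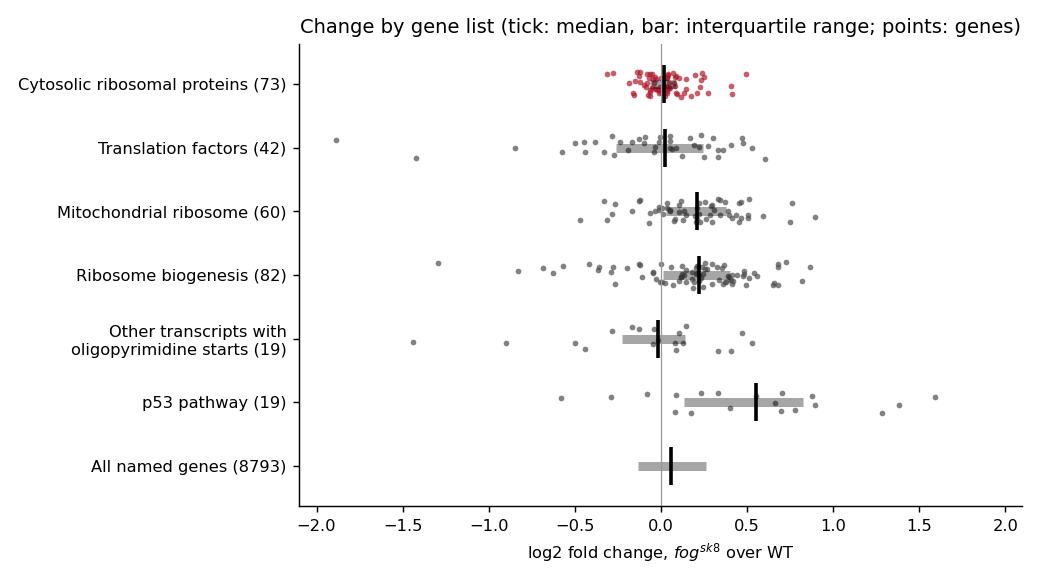
Log2 fold change of *fogsk8* over WT embryos for the 73 ribosomal protein genes (red, top), 5 related lists and all 8793 named genes (bottom); points are genes, ticks medians and bars interquartile ranges. The 73 genes lie between −0.31 and 0.49, the highest being *rps19bp1*, with a median of 0.019, and the p53 list has a median of 0.55.

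A shortage of single ribosomal proteins is known to stabilize p53 through the L5 and L11 particle. Of 19 measured genes of the p53 pathway, 7 rose and 1 fell (42.1%), 3 of them higher by 2-fold, with a median of 0.55, where 19.9% of all genes were called. *fogsk8* replicate 3 was the highest mutant array in 12 of the 19, where it was so in 32.7% of all genes. Without it 8 rose and 0 fell, 2 of them higher by 2-fold, with a median of 0.38, where 15.5% of all genes were called. With any 1 array left out 1 to 8 rose, where 10.6% to 15.5% of all genes were called. Both were lowest without WT replicate 1. *rps27l*, a paralog of *rps27* that p53 induces in mammals and that the rule leaves out, read 9.44, 9.53 and 10.26 in mutants, against 8.26, 8.40 and 8.42 in WT (log2 fold change 1.39, SE 0.23, adjusted p = 0.0152). The mutant samples lay above the WT samples in this gene, replicate 3 farthest. Its change was 1.13 without *fogsk8* replicate 3 (adjusted p = 0.00754), and its call was lost without WT replicate 1 (adjusted p = 0.053). *pmaip1*, a death gene that p53 induces, rose by 1.59 (SE 0.17, adjusted p = 0.00477), and *phlda3* by 1.28 (SE 0.32, adjusted p = 0.0488). The values of *pmaip1* were low, at 4.43 ± 0.20 in mutants and 2.84 ± 0.28 in WT (SD, n = 3 each). Without *fogsk8* replicate 3 the change of *phlda3* was 0.90 (adjusted p = 0.0125), under 2-fold, and its call was lost without any other 1 of the arrays (adjusted p = 0.0598 to 0.120). The *mdm2* transcript had a log2 fold change of 0.33 (SE 0.14, adjusted p = 0.183).

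Whole embryos hold many cell types, and fewer cells of a type and less RNA per cell cannot be told apart in these values. The part of cell types in the ribosomal protein values was not tested. Of 19 listed markers of neurons, muscle, blood, skin, notochord, lens and pigment cells, 17 were measured, of which 11 fell, 0 rose and 6 did not pass the test. Of all genes 9.14% fell and 10.8% rose. Among the neural markers *elavl3* and *neurod1* fell and *sox3* did not pass (adjusted p = 0.121, limma). Among those of the notochord *col2a1a* fell, and *shha* and *tbxta* did not pass (adjusted p = 0.370 and 0.608, limma). Of the 2 measured muscle markers, the light chain *mylpfa* read 9.60 ± 0.56 in mutants and 13.06 ± 0.35 in WT (adjusted p = 0.00325), and the early factor *myod1* 5.46 ± 0.42 in mutants and 5.02 ± 0.53 in WT (adjusted p = 0.409; SD, n = 3 each, limma). The red cell enzyme *alas2* read 4.31 ± 0.17 in mutants and 7.68 ± 0.50 in WT (adjusted p = 0.00207, limma). Of the 3 skin markers, the claudin *cldni* read 10.48 ± 0.039 in mutants and 11.01 ± 0.19 in WT (adjusted p = 0.025, limma), while the keratin *krt4* at 14.00 ± 0.21 in mutants and 14.00 ± 0.042 in WT (adjusted p = 0.989) and *agr2* at 8.29 ± 0.25 in mutants and 8.16 ± 0.46 in WT (adjusted p = 0.766) did not pass.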

How the data were processed

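Biotinylated cRNA from 3 *fogsk8* and 3 WT sibling samples at 24 hpf was hybridized by the authors to 1 array each. The deposited log2 values were made by the authors with GC-RMA (named as GCRMA in the submitters' processing notes, version not given in the sources used here), which corrects probes for background by GC content, normalizes between arrays and gives 1 value a probe set. Samples were grouped by the genotype in their titles. Precision is limited by the number of arrays.

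From these values 15502 of 15617 probe sets, without 115 controls, were fitted by group alone in limma 3.58.1 (R 4.3.3, moderated by eBayes), and p-values were adjusted by Benjamini-Hochberg over all of them. The platform's table gave 1 symbol to 10795 probe sets, several to 135 (1 with a ribosomal protein among them, not used) and none to 4572. All 73 members had their Entrez ID in RefSeq (GRCz12tu, used for names), and 0 symbols changed. Tables and figures used Python 3.11.15, pandas 2.3.3, scipy 1.17.1 and matplotlib 3.10.9, and the fit was tested on simulated data. Named genes were those past the threshold and 2-fold, the 8 highest and 8 lowest changes, paralogs, the 3 brightest and 3 dimmest members, the 3 smallest p-values and changes, genes whose probe sets differ in call, *rpl4*, *supt5h*, and up to 3 genes of each related list. The members and lists were chosen with earlier results of these data known. Same-numbered samples deviated together from their group means (correlations 0.12, 0.29 and 0.39 for replicates 1, 2 and 3), all over the bound of 0.1 set for pairing, while *fogsk8* replicate 2 also correlated with WT replicate 1 (0.18) and *fogsk8* replicate 1 with WT replicate 2 (0.15). The main fit did not use this pairing, and a fit blocked by replicate number was run as an alternative. The alternatives were the methods' t-test, a mean-variance trend, centred arrays, a further quantile normalization, leaving out dim probe sets (mean under 4 in both groups), the replicate block, the mean of a gene's probe sets, and arrays left out. Sequence features were planned but not analysed here.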

Additional observations from a re-analysis of the deposited data

How the results depend on the processing

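No member reached 2-fold under any of the 15 alternatives. The count of members that rose (1, *rplp2*) was 7 by the unadjusted t-test of the methods and 0 once adjusted, 2 with arrays centred on their medians, 3 with a further quantile normalization, 2 with the replicate block, 2 with the mean of a gene's probe sets, and 0 without replicate 3 of both groups. The count that fell (1, *rpl18*) was 3 by that unadjusted t-test, 2 with a further quantile normalization, and 0 with dim probe sets left out and with the replicate block. With any 1 array left out, both counts were 0 to 1, where 10.6% to 15.5% of all genes were called. With all arrays 19.9% were called. The share of all genes was 25.2% with the replicate block and 21.1% with the mean of a gene's probe sets. It was 15.9% without replicate 3 of both groups. Once dim probe sets were dropped, 28.4% of the 6436 genes that remained were called. The median change of the 73 genes, 0.019, was −0.034 to 0.050 with any 1 array left out and −0.044 without replicate 3 of both groups, where that of the small subunit genes was −0.040. With centred arrays the median was 0.058 for the members and 0.096 for all genes. The block changed the calls of *rpl18* (lost) and *rpl7l1* (gained) and no other call among the members. The precision is limited by 3 arrays a group, and the causes of these differences were not tested.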
